A study of Homo sapiens with 6 samples.

Results

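The retinoblastoma (RB) pocket proteins, the E2F transcription factors and 3 further proliferation factors were examined in MDA-MB-231 cells, a triple-negative breast cancer cell line, and in cells of the same line made resistant to Adriamycin (ADR, doxorubicin). The genes were RB1, RBL1 and RBL2 (pocket proteins), E2F1, E2F2, E2F3 and E2F8 (E2F factors), MYBL2, FOXM1 and MYC. They were picked by name, 10 of the 58735 genes in the count table, and all 10 passed the filter on low counts that left 15242 genes for testing.

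RNA sequencing was available for 3 libraries of parent cells, labelled wild type, and 3 libraries of ADR-resistant cells (ADRr), labelled ADR resistant. No other genotype or treatment was named for either group. By the study's methods, resistant cells were selected in rising ADR concentrations and resistant clones were then isolated by limiting dilution, so the ADRr group holds drug-selected cells of clonal origin and not a freshly treated population. The labels give all 3 ADRr libraries the same cell name and mark no separate clones among them. The differences below are therefore those of this resistant line. Whether ADR was present at harvest, and whether the 3 libraries of a group came from separate cultures, is not given in the sources used here, and p-values then measure only the spread between these libraries, which may be technical. The design text speaks of 3 time points, but no label assigns a library to one.

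Pocket proteins hold E2F factors inactive on promoters of S phase genes until cyclin-dependent kinases phosphorylate them as cells pass from G1 into S phase. E2F1, E2F2 and E2F3 then activate transcription, while E2F7 and E2F8, the atypical members, repress the same genes later in the cycle. MYBL2 and FOXM1 act downstream with the MuvB complex on genes of G2 and mitosis, MuvB forms the repressive DREAM complex with RBL1 or RBL2 when cells rest, and MYC drives growth, ribosome production and cell cycle entry in parallel.

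Total counts per library lay between 15983985 and 18272314, and genes of the mitochondrial genome, of any type, took 4.63 to 5.26% of them. Of 11 cell line markers, ESR1 and PGR, the hormone receptors that triple-negative cells lack, had at most 3 counts in every library. ERBB2, the third receptor, was present (11.4 and 4.83 FPKM), KRT8, KRT18, KRT19, VIM and CDH1 were called lower with it, and CD44, EGFR and EPCAM were called higher, with a summed level of 452 to 471 FPKM in parent and 423 to 435 FPKM in ADRr cells. Of 12 leukocyte markers, 7 had at most 3 counts in every library, PTPRC, CD3E and LYZ among them. The summed level of that list was 18.2 to 19.98 FPKM (fragment counts scaled for gene length and library depth) in parent and 27.9 to 29.7 FPKM in ADRr cells, of which LAPTM5 alone held 16.04 and 25.7 FPKM on average. Of 10 fibroblast and endothelial markers, 3 (PDGFRA, DCN and CDH5) were at or below 3 counts throughout, and the sum was 10.8 FPKM in parent and 3.27 to 3.59 FPKM in ADRr cells. The part of these markers in the results below was not tested.

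Most of the proliferation factors were lower in ADRr cells, and MYC was higher. A gene counted as called when its adjusted p did not exceed 0.05 (edgeR's quasi-likelihood test with Benjamini-Hochberg adjustment over all genes tested) and it differed 1.2-fold or more. Of the 10 genes, 7 were called lower (RBL1, RBL2, E2F1, E2F2, E2F8, MYBL2 and FOXM1), 1 was called higher (MYC) and 2 were not called (RB1 and E2F3). Among all genes tested, 29.6% were called lower and 29.2% higher (58.8% in either direction), so that calls were common in this comparison. In each of the 8 called genes the libraries of the 2 groups did not overlap, as in 69.2% of all genes tested. The median log2 fold change of the 10 genes, ADRr over parent, was -1.01, beside -0.0061 for all genes tested and a median absolute change of 0.46. Where a log2 change of 1.2 or more either way was required, E2F1, E2F2, E2F8 and MYBL2 were still called lower, and MYC was not called. In bulk RNA, fewer cycling cells and less mRNA in each cycling cell cannot be told apart.

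**Figure D1:**
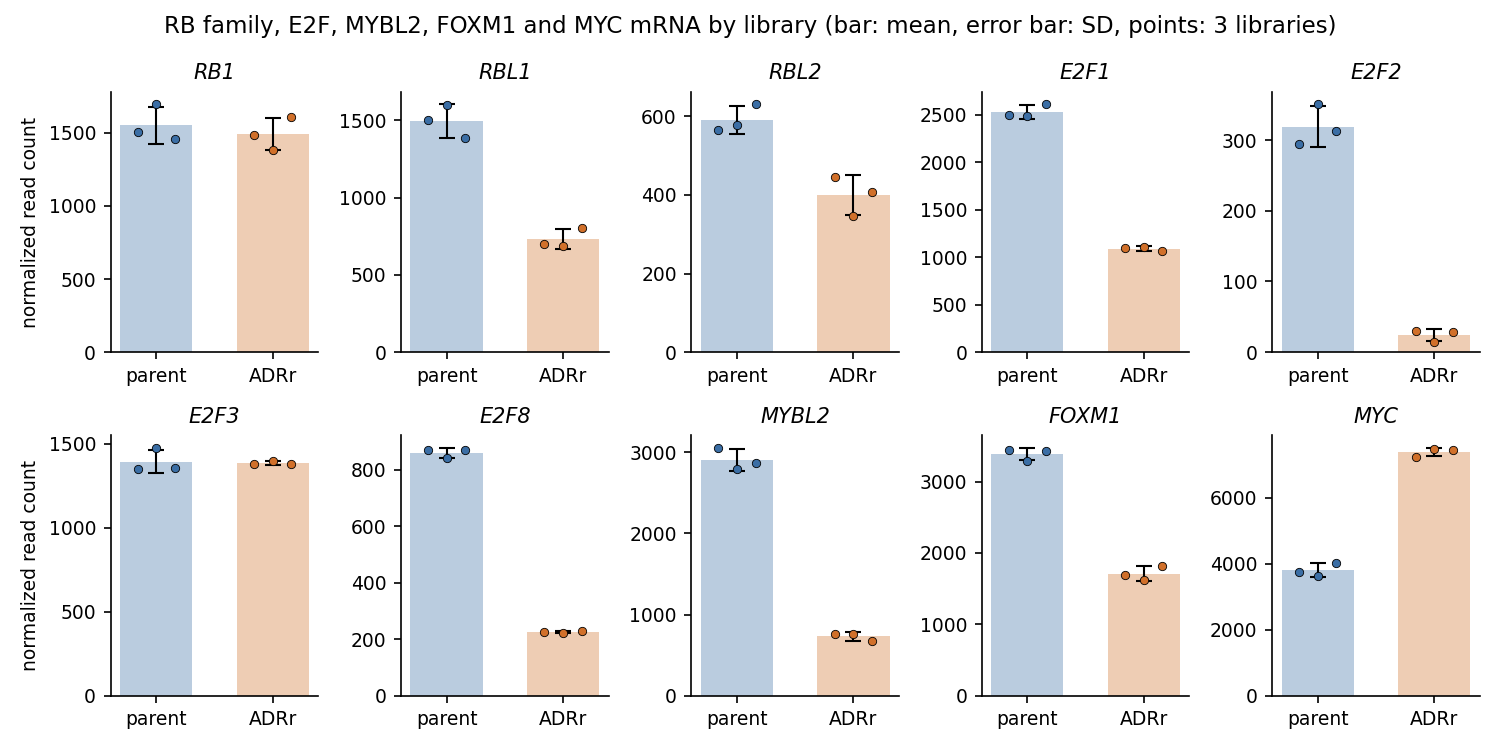
Normalized read counts (y axis, from 0, a separate scale for each gene) of the 10 genes in parent and ADRr cells, with the mean as a bar, the SD as an error bar and the 3 libraries as points. The points of the groups overlap for RB1 and E2F3, lie lower in ADRr cells for 7 genes and higher for MYC.

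Among the pocket proteins, RB1 was not called while RBL1 and RBL2 were lower. RB1 (ENSG00000139687, GRCh38 chromosome 13, 48303726 to 48599436), the tumour suppressor that restrains the activating E2Fs, had 1509, 1695 and 1455 normalized read counts in parent replicates 1 to 3 and 1485, 1385 and 1607 in ADRr replicates 1 to 3. The groups overlapped. Its log2 fold change was -0.056 (standard error 0.069, 95% interval -0.20 to 0.086, adjusted p = 0.49 by edgeR), and a change within that interval was not detectable here. RB1 overlaps RCBTB2 on the opposite strand, which had 66, 62 and 53 counts in parent and 82, 64 and 74 in ADRr libraries.

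RBL1 (p107; ENSG00000080839, chromosome 20, 36996349 to 37095995), a pocket protein that is itself made mainly in cycling cells, had 1502, 1601 and 1385 normalized counts in parent and 701, 688 and 806 in ADRr libraries. Every ADRr library lay below every parent library. The log2 fold change of RBL1 was -1.03 (standard error 0.074, adjusted p = 3.3e-11 by edgeR), or 2.04-fold lower. RBL2 (p130; ENSG00000103479, chromosome 16, 53433977 to 53491649), the pocket protein that prevails in resting cells, had 565, 577 and 630 normalized counts in parent and 446, 345 and 408 in ADRr libraries. Here too the groups did not overlap, although ADRr replicate 1 stood nearer to the parent libraries than the others. RBL2 changed by -0.56 on the log2 scale (standard error 0.094, adjusted p = 1.7e-05 by edgeR), 1.47-fold lower and the smallest of the 8 called changes. RBL2 overlaps AKTIP on the opposite strand, whose counts were 219, 198 and 218 in parent and 397, 343 and 352 in ADRr libraries. Whether the counting used strand is not given in the sources used here, and without it reads from the shared stretch cannot be assigned.

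On the FPKM scale, which allows genes to be compared, the pocket proteins summed to 32.3, 34.9 and 31.0 FPKM in parent and 23.5, 21.6 and 25.3 FPKM in ADRr libraries. RB1 mRNA made up 42.0 ± 0.907% of that sum in parent cells and 56.6 ± 0.303% in ADRr cells (SD, n = 3 libraries each). RBL1's share was 43.9 ± 1.04% and 30.1 ± 1.08%, and that of RBL2 14.1 ± 1.51% and 13.4 ± 1.35%. RB1 and RBL1 thus had nearly equal levels in parent cells, where their libraries overlapped. Within each parent library RBL1 stood slightly above RB1, and RB1 stood above RBL1 in every ADRr library. These shares and the sums and ratios below were compared by a two-sided exact permutation test over libraries, whose smallest p with 3 against 3 is 0.1. Of 27 such quantities, 22 reached that value (0.12 after Benjamini-Hochberg adjustment over the 27), so none can pass 0.05 by design. The permutation p was 0.1 for the shares of RB1 and RBL1 and 0.5 for that of RBL2.

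The 3 activating E2Fs moved by very different amounts. E2F1 (ENSG00000101412, chromosome 20, 33675683 to 33686404), the most abundant of them, had 2496, 2484 and 2611 normalized counts in parent and 1098, 1108 and 1061 in ADRr libraries. The groups were far apart against a spread of a few percent within each. Its change was -1.22 (log2, standard error 0.057, adjusted p = 1.7e-14 by edgeR), 2.32-fold lower.

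E2F2 (ENSG00000007968, chromosome 1, 23506430 to 23531220), another activator of S phase genes, had 286, 324 and 321 raw counts in parent and 32, 14 and 31 in ADRr libraries. After normalization these were 294, 351 and 313 against 30.5, 14.7 and 29 counts, with no overlap and with ADRr replicate 2 the lowest. E2F2 was 12.7-fold lower, a change of -3.67 in log2 (standard error 0.18, 95% interval -4.04 to -3.29, adjusted p = 4.1e-14 by edgeR). It ranked 146th of all genes tested by the size of its change, the highest rank of the 10 genes.

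E2F3 (ENSG00000112242, chromosome 6, 20401906 to 20493715), the activator that many cell types need for normal proliferation, had 1352, 1477 and 1356 normalized counts in parent and 1383, 1401 and 1379 in ADRr libraries. The ADRr values lay inside the range of the parent values. Its log2 fold change was -0.0070 (standard error 0.060, 95% interval -0.13 to 0.12, adjusted p = 0.93 by edgeR), and 99.0% of genes tested changed more. Reads of its processed pseudogenes E2F3P1 and E2F3P2 were few, at most 2 counts in any library. The log2 ratio of E2F1 to E2F3, in FPKM, was 1.93, 1.80 and 1.99 in parent and 0.71, 0.71 and 0.67 in ADRr libraries. That of E2F2 to E2F3 was -2.28, -2.15 and -2.20 in parent and -5.58, -6.66 and -5.65 in ADRr libraries (exact permutation p = 0.1 for either ratio). These pairs of genes were chosen for comparison after their values had been seen.

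E2F8 (ENSG00000129173, chromosome 11, 19224063 to 19241620), an atypical E2F that represses E2F targets late in S phase and needs no DP partner, had 870, 841 and 871 normalized counts in parent and 225, 223 and 228 in ADRr libraries. The spread within each group was small and the groups did not overlap. E2F8 fell by 1.93 on the log2 scale (standard error 0.083, adjusted p = 3.4e-15 by edgeR), 3.82-fold lower. Its close relative E2F7, which is not among the 10 genes but shares this function, had 16.2, 14.8 and 14.8 FPKM in parent and 54.4, 50.9 and 53.3 FPKM in ADRr libraries, a change of 1.79 in log2 (standard error 0.054, adjusted p = 8.0e-18 by edgeR). The atypical pair therefore moved in opposite directions.

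Promoter sequences of the activating E2Fs and of RBL1 are shown because these genes are known targets of E2F itself, and because lowered and unlowered genes can be set side by side. The sequences are from RefSeq (GRCh38.p14), where each entry spans 250 bases before to 50 after a transcription start. Of the 10 genes, 6 had an entry within 2000 bases of the gene's 5′ end in the annotation of the count table: RBL1, RBL2, E2F1, E2F2, E2F3 and MYBL2. A match to 1 of 4 forms of the E2F motif (TTTCCCGC, TTTGGCGC, TTTCGCGC or TTTGCCGC, on either strand) was present for 4 of these 6 genes and in 3.31% of all 35116 promoter entries. Counted by gene, 3.99% of all genes with an entry held a match. Below, 100 bases are given 5′ to 3′ on the gene's strand in lower case, with E2F motif matches in capitals.
RBL1, minus strand, chr20:37095998-37096097: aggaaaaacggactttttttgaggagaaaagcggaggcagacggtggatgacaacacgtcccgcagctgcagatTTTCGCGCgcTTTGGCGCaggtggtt
E2F1, minus strand, chr20:33686398-33686497: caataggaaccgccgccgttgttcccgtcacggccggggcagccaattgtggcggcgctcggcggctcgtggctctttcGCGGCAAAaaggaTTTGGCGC
E2F2, minus strand, chr1:23531234-23531333: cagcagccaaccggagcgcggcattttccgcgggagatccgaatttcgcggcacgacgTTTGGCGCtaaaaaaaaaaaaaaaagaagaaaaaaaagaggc
E2F3, plus strand, chr6:20401779-20401878: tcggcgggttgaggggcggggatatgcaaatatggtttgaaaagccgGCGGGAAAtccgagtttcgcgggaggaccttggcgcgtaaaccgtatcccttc

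The form TTTGGCGC stood on the gene's own strand in RBL1 (16 to 9 bases before the RefSeq start), E2F1 (20 to 13 bases before it) and E2F2 (42 to 35 bases before it), 3 genes that were lower in ADRr cells. RBL1 held TTTCGCGC in addition and E2F1 held TTTGCCGC on the opposite strand, both within 33 bases of the start. E2F3, which was not called, also held a match, TTTCCCGC on the opposite strand, 53 to 46 bases before the start. MYBL2 and RBL2, both lower, held none of the 4 forms in their entries, and other forms of the E2F site were not sought. The RBL2 entries have starts 494 and 1642 bases downstream of the annotated gene start, however. The bases before that annotated start of RBL2 were therefore not scanned. E2F1 and E2F3 carried 3 and 4 CCAAT boxes (letters CCAAT, either strand), which 34.6% of all entries and 39.7% of all genes with an entry hold. The CHR element (the letters TTTGAA, or else TTTAAA, or else TTCGAA, on either strand), through which MuvB complexes bind, matched in RBL2 and E2F3 and in 25.1% of all entries, and the E-box CACGTG, the site of MYC and MAX, in E2F3 (a downstream entry) and MYBL2 and in 7.26% of all entries. A match describes these letters only, and binding was not measured.

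Within the E2F family as a whole the summed level of E2F1 to E2F8 was similar in both groups, at 135, 133 and 135 FPKM in parent and 133, 130 and 133 FPKM in ADRr libraries (exact permutation p = 0.3; the groups overlapped). Its makeup differed. E2F1, E2F2 and E2F3 together made up 57.1 ± 1.22% of the family's mRNA in parent cells and 30.8 ± 0.618% in ADRr cells (SD, n = 3 libraries each). E2F1 alone went from 43.1 ± 0.957% to 18.9 ± 0.517%, and E2F2 from 2.49 ± 0.248% to 0.196 ± 0.0682%. E2F8's share was 8.85 ± 0.0857% and 2.36 ± 0.0218%, whereas E2F7 took 11.4 ± 0.509% in parent and 40.1 ± 0.965% in ADRr cells (exact permutation p = 0.1 for each of these shares). E2F1 was the leading family member in every parent library, and E2F7 in every ADRr library. E2F3 held 11.5 ± 0.706% and 11.7 ± 0.186%, and E2F4, the main partner of RBL1 and RBL2 in repression, 18.03 ± 0.588% and 18.7 ± 0.586% (p = 0.6 and 0.3 by the exact permutation test). The differences for E2F3 and E2F4, 0.17 and 0.67 points, depended on the scale, at -3.16 and -3.14 on CPM (counts scaled for depth but not for length) and 5.86 and 9.87 within E2F1 to E2F6. The ratio of the activating E2Fs to the 3 pocket proteins was 2.33, 2.20 and 2.50 in parent and 1.74, 1.90 and 1.58 in ADRr libraries, lower in each ADRr library (exact permutation p = 0.1).

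**Figure D2:**
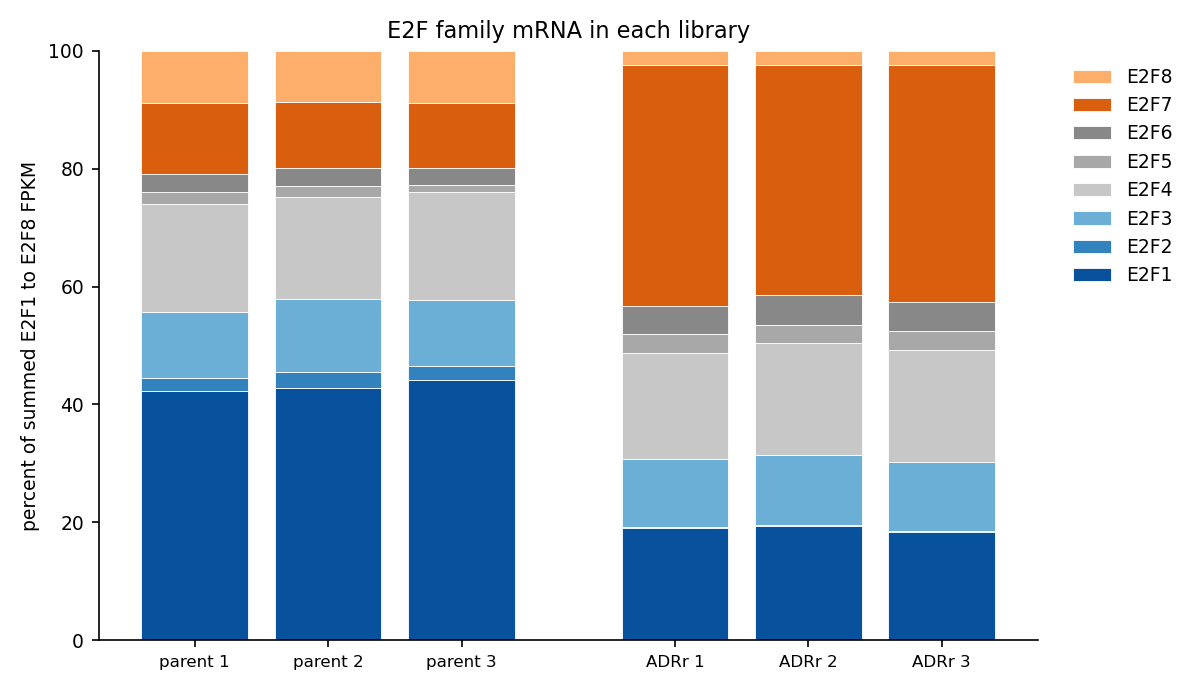
Share of each E2F gene in the summed FPKM of E2F1 to E2F8 (y axis, percent) in each of the 6 libraries (x axis), stacked from E2F1 at the bottom to E2F8 at the top. E2F7 fills about 40.1% of the ADRr bars against 11.4% of the parent bars, and E2F1 shrinks from 43.1% to 18.9%.

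MYBL2 and FOXM1, which drive the mitotic programme, were both lower, MYBL2 by more. MYBL2 (B-MYB; ENSG00000101057, chromosome 20, 43667019 to 43716496), itself an E2F target that binds MuvB in S phase, had 3055, 2794 and 2866 normalized counts in parent and 758, 761 and 672 in ADRr libraries. No libraries overlapped. MYBL2 was 3.98-fold lower, a change of -1.99 in log2 (standard error 0.065, adjusted p = 2.5e-17 by edgeR).

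FOXM1 (ENSG00000111206, chromosome 12, 2857681 to 2877155), a forkhead factor that joins MYBL2 and MuvB at promoters of mitotic genes, had 3440, 3292 and 3431 normalized counts in parent and 1691, 1616 and 1817 in ADRr libraries. Its groups were also apart. The change was -0.99 (log2, standard error 0.056, adjusted p = 5.8e-13 by edgeR), 1.98-fold lower. FOXM1 overlaps RHNO1 head to head on the opposite strand, and RHNO1 had 724, 627 and 736 counts in parent and 669, 637 and 815 in ADRr libraries. At its other end FOXM1 overlaps ITFG2, also on the opposite strand. ITFG2 had 214, 182 and 239 counts in parent and 250, 197 and 270 in ADRr libraries. As for RBL2, reads from the shared stretches cannot be assigned without the strand setting. In FPKM, MYBL2 stood above FOXM1 in every parent library (log2 ratio 0.65, 0.58 and 0.56). It stood below FOXM1 in every ADRr library (-0.34, -0.27 and -0.62, exact permutation p = 0.1). Like the pairs of E2Fs, this pair was not fixed in advance.

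MYC (ENSG00000136997, chromosome 8, 127735434 to 127741434), the E-box factor of growth and ribosome production, was the only 1 of the 10 genes that rose. It had 3767, 3646 and 4040 normalized counts in parent and 7250, 7487 and 7443 in ADRr libraries. All ADRr libraries lay above all parent libraries. MYC was 1.94-fold higher, a change of 0.95 in log2 (standard error 0.051, 95% interval 0.85 to 1.06, adjusted p = 1.6e-13 by edgeR). Of its 50 nearest tested genes on the chromosome, 19 were called higher and 10 lower, with a median log2 fold change of 0.26. Among the 20 nearest, 11 were called higher and 4 lower, with a median of 0.62, and over the 100 nearest the median was 0.096. PVT1, the long noncoding RNA gene next to MYC, rose by 0.88 (standard error 0.088, adjusted p = 8.1e-09 by edgeR). DNA copy number was not measured, and its part in the level of MYC was not tested.

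For the other 9 genes the median change of the 50 nearest tested genes lay between -0.27 (E2F3) and 0.37 (MYBL2). RBL1, E2F1 and MYBL2, all called lower, lie on chromosome 20. The median of the neighbours was 0.013 around RBL1 and -0.0023 around E2F1. E2F2 lay 3.61 below the median of its neighbours, E2F8 1.70 below and FOXM1 1.06 below on the log2 scale. RB1 was 0.24 below its neighbours' median and E2F3 0.27 above.

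**Figure D3:**
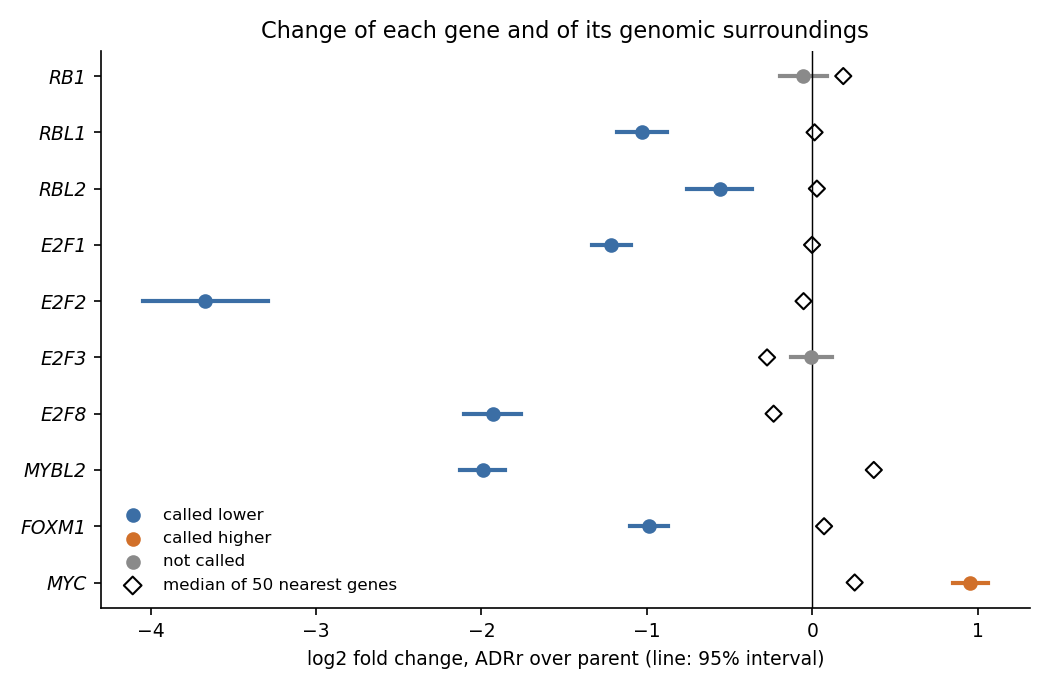
Log2 fold change, ADRr over parent (x axis), of the 10 genes (y axis) as filled circles with 95% intervals, with the median of the 50 nearest tested genes on the same chromosome as open diamonds. The intervals of RB1 and E2F3 cross 0, that of E2F2 lies farthest out at -4.04 to -3.29, and MYC is the gene to the right of 0.

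Levels per length placed MYC first in both groups, at 72.7 ± 3.74 FPKM in parent and 141 ± 2.32 FPKM in ADRr cells (SD, n = 3 libraries each). MYBL2 (59.8 ± 2.93 FPKM) and E2F1 (57.8 ± 1.49 FPKM) followed in parent cells with overlapping libraries, then FOXM1 (39.5 ± 1.01 FPKM). E2F3 (15.4 ± 0.774), RBL1 (14.4 ± 1.05) and RB1 (13.8 ± 1.12 FPKM) came next, and the neighbours in this order overlapped. E2F8 (11.9 ± 0.245), RBL2 (4.61 ± 0.260) and E2F2 (3.34 ± 0.295 FPKM) were the lowest and stood apart from each other. In ADRr cells MYC was followed at a distance by E2F1 (24.95 ± 0.507) and FOXM1 (19.998 ± 1.25 FPKM), which did not overlap. E2F3 (15.4 ± 0.0894), MYBL2 (15.1 ± 1.01) and RB1 (13.3 ± 1.03 FPKM) overlapped as neighbours, so that MYBL2 had come down to the level of E2F3. RBL1 (7.05 ± 0.642 FPKM) was next. RBL2 (3.13 ± 0.405) and E2F8 (3.12 ± 0.0436 FPKM) overlapped, and E2F2 was last at 0.260 ± 0.0922 FPKM. The log2 ratio of MYC to E2F1 was 0.33, 0.29 and 0.37 in parent and 2.46, 2.49 and 2.55 in ADRr libraries (exact permutation p = 0.1). This pair was likewise not fixed in advance.

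**Figure D4:**
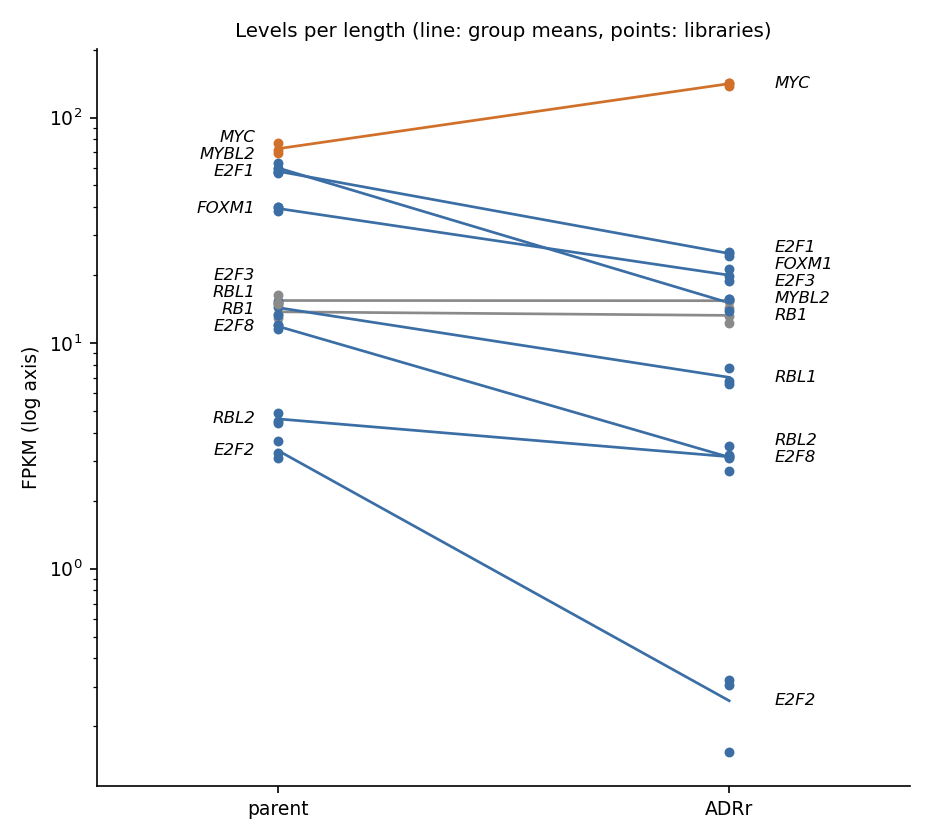
FPKM on a log axis (y axis) of the 10 genes in parent and ADRr cells (x axis), with points for the libraries and lines joining the group means (blue called lower, orange called higher, grey not called). MYC stays on top and moves up from 72.7 to 141 FPKM, MYBL2 crosses from 2nd to 5th place, and E2F2 drops farthest, to 0.260 FPKM.

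The kinases that phosphorylate pocket proteins and the inhibitors of these kinases were divided. Of 17 genes on that list, 15 were tested, with a median log2 fold change of -0.32. Of these, 8 were called lower (53.3%, beside 29.6% of all genes tested) and 4 higher (26.7%, beside 29.2%). CDKN1A (p21), an inhibitor of cyclin-CDK complexes, rose 7.40-fold from 12.3, 12.9 and 13.5 to 96.2, 95.6 and 95.9 FPKM (log2 fold change 2.89, standard error 0.058, adjusted p = 8.8e-21 by edgeR). CDKN1C (p57) rose by 1.99, while CDKN1B (p27) changed by -0.32 and the INK4 inhibitor CDKN2C (p18) by -3.26. CDKN2A and CDKN2B, whose locus is known to be deleted in this line, had 0 counts in all 6 libraries, which allows up to 3 counts in each. Of the cyclins, CCNA2 and CCNE2, both E2F targets, changed by -2.03 and -1.95, and CCND3 by -1.01, while CCNE1, also an E2F target, changed by 0.12 and was not called (adjusted p = 0.27 by edgeR). CCND2, a D-type cyclin, had 0, 3 and 1 counts in parent and 39, 53 and 66 counts in ADRr libraries and was called higher. CCND1, the most abundant gene of the list at 133 and 111 FPKM, changed by -0.26 and missed the fold change threshold. CDK4 rose by 0.54, CDK2 fell by 0.74, and CDK6 changed by 0.019 and was not called.

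Partners of the E2Fs and of the DREAM complex were called about as often as genes in general, with 5 of 15 lower (33.3%, beside 29.6% of all genes tested), 4 higher (26.7%, beside 29.2%) and a median of -0.056. E2F7 (above), E2F5 (0.88), DYRK1A (0.87), the kinase that assembles DREAM, and E2F6 (0.68) were higher. SKP2 and CCNF, F-box proteins made in S and G2 phase, changed by -2.39 and -1.59. TFDP1, the DP partner that E2F1 to E2F6 need to bind DNA, was the most abundant of the list, at 62.4 and 60.2 FPKM, and was not called (-0.056, adjusted p = 0.34 by edgeR). TFDP2, the other DP partner, was called lower (-0.86, adjusted p = 2.2e-09 by edgeR). E2F4 changed by 0.023 and was not called. Of the MuvB core, LIN9 (-0.39) and RBBP4 (-0.72) were lower, and LIN37, LIN52 and LIN54 were not called.

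Genes that E2Fs are known to drive at G1/S were lower almost throughout: 41 of 44 tested were called lower, 1 higher and 2 not called, with a median log2 fold change of -1.17. The share called lower was 93.2%, beside 29.6% of all genes tested. ORC1 and MCM5, which license replication origins, changed most (-2.46 and -2.21). The exception was RBBP8 (CtIP), a DNA end resection factor, which rose by 0.60. TK1, the most abundant of the list at 126 and 96.6 FPKM, changed by -0.39. Of the 41 genes of the list with a promoter entry, 23 (56.1%) held an E2F motif, beside 3.99% of all genes with an entry.

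For genes of G2 and mitosis that MYBL2 and FOXM1 are known to drive, 44 of 50 were called lower, 1 higher and 5 not called, with a median of -1.05. The share called lower was 88%, beside 29.6% of all genes tested. KIF20A, a kinesin of cytokinesis, changed by -3.44 and the topoisomerase TOP2A, a target of doxorubicin, by -2.19. SKA1, a kinetochore protein, rose by 0.48. Like RBBP8, the exception of the G1/S list, SKA1 lies on the long arm of chromosome 18. The part of position in their rise was not tested. UBE2C, a ubiquitin-conjugating enzyme of mitotic exit and the most abundant gene of the list, had 166 and 160 FPKM and was not called (-0.059, adjusted p = 0.30 by edgeR). Of the 44 list genes with a promoter entry, 41 (93.2%) held a CHR element and 3 (6.82%) an E2F motif, beside 29.03% and 3.99% of all genes with an entry. Earlier results of these data had already shown lists of S phase and G2/M genes to be lower, so these counts are no separate evidence of that direction. The motif shares of both lists are likewise no separate evidence, since the genes were picked as known targets of these factors.

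MYC rose together with MAX, and its antagonists were divided. The 16 tested genes of the MYC-MAX network had a median of 0.060. Of them, 7 were called higher (43.8%, beside 29.2% of all genes tested) and 6 lower (37.5%, beside 29.6%). MAX, the partner that MYC needs to bind DNA, had 12.2, 11.9 and 12.2 FPKM in parent and 26.2, 24.3 and 25.3 FPKM in ADRr libraries (log2 fold change 1.06, standard error 0.060, adjusted p = 4.6e-13 by edgeR). The ratio of MYC to MAX was 5.91, 5.83 and 6.29 in parent and 5.29, 5.86 and 5.63 in ADRr libraries, and the groups overlapped (exact permutation p = 0.2). MXD1 and MXI1, which compete with MYC for MAX, rose by 2.35 and 1.61, and MNT, another such competitor, by 0.84. MXD3 and MXD4 of the same family changed by -1.89 and -0.87. These 5 antagonists summed to 18.5, 17.4 and 20.7 FPKM in parent and 26.9, 28.4 and 27.2 FPKM in ADRr libraries. MYC stood at 3.89, 3.998 and 3.72 times that sum in parent and 5.15, 5.02 and 5.24 times in ADRr libraries, with no overlap (exact permutation p = 0.1). Neither ratio of MYC was fixed in advance. CIP2A and USP28, which stabilise MYC protein, changed by -0.61 and -0.56, as did FBXW7, which marks it for degradation, by -0.35.

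Among 44 genes of ribosome making and metabolism that MYC is known to drive, 15 were called higher, 8 lower and 21 not called, and the median was 0.083. The 15 called higher are 34.1% of the list, beside 29.2% of all genes tested, and the 8 called lower 18.2%, beside 29.6%. WDR43, a nucleolar factor, rose by 1.502 and ODC1, the first enzyme of polyamine synthesis, by 1.35. Both lie on the short arm of chromosome 2, where other genes of the list were not called. The part of position in their rise was not tested. ENO1, the glycolytic enzyme and the most abundant gene of the list, rose by 0.70. DCTPP1 and HSPE1 changed by -1.02 and -0.999. LDHA, lactate dehydrogenase A, fell by 0.88 from 208 to 113 FPKM.

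**Figure D5:**
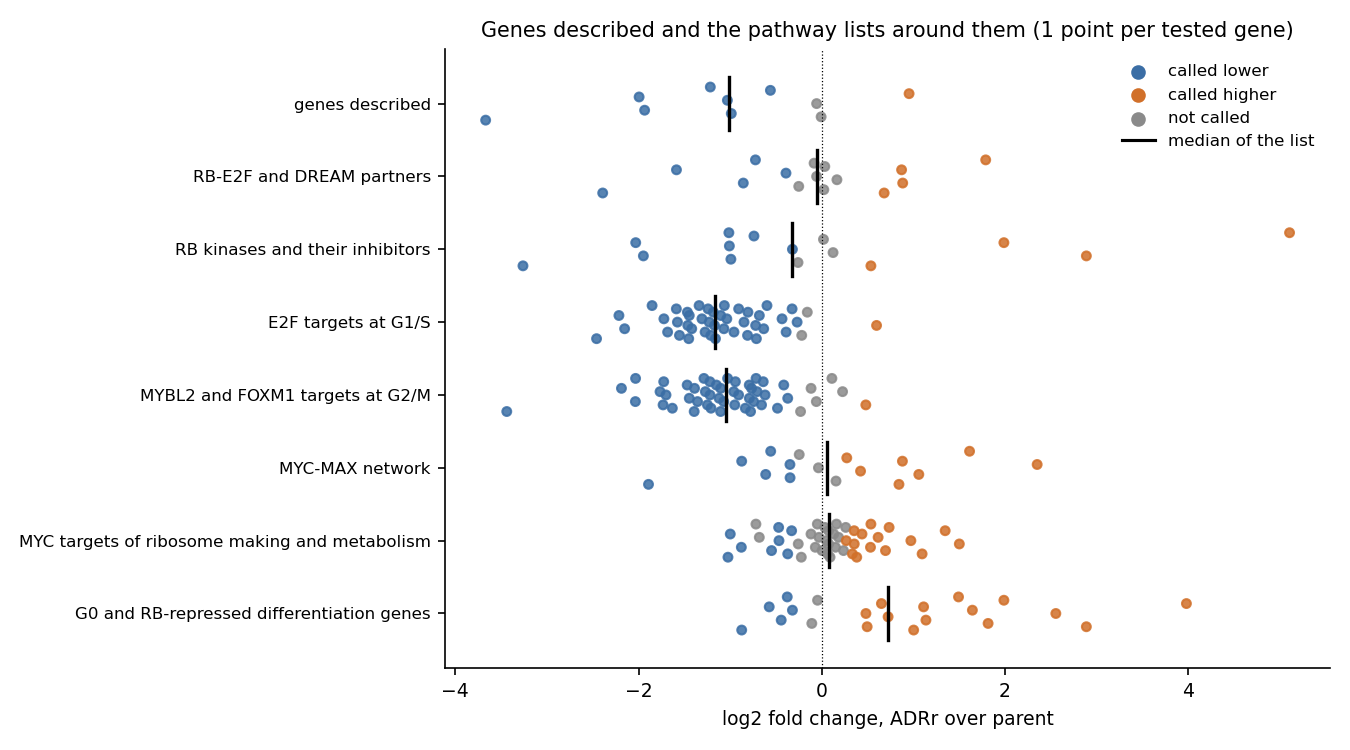
Log2 fold change, ADRr over parent (x axis), of each tested gene as 1 point, for the 10 genes described and the 7 pathway lists (y axis), coloured by call, with the median of each list as a black line. The G1/S and G2/M lists lie mostly left of 0 with medians of -1.17 and -1.05, and the MYC target list is centred near 0 at 0.083.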

How the data were processed

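RNA of 3 parent and 3 ADRr libraries was sequenced as polyA-selected paired-end libraries by the study's methods, and the labels describe another RNA input and kit. Per the labels, fastp, HISAT2 2.0.5, featureCounts 1.5.0-p3 and DESeq2 1.20.0 were used on GRCh38. The authors deposited raw read counts per gene and FPKM values, which divide counts by gene length and depth. All 58735 identifiers and coordinates matched GENCODE release 29. Levels between genes were compared in FPKM, with CPM as an alternative for the E2F shares and the ratio of activating E2Fs to pocket proteins. Multi-mapping settings are not given in the sources used here.

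Counts were tested in R 4.3.3 with edgeR 4.0.16 (TMM, filterByExpr, glmQLFit and glmQLFTest, group only), with Benjamini-Hochberg adjustment over 15242 genes. Normalized counts are counts divided by the effective library size and scaled to the mean size. Standard errors are the absolute log2 fold change over the square root of the F statistic, and 95% intervals use the t distribution of the fit. The code was tested on simulated data. Alternatives used DESeq2 1.42.0 and limma 3.58.1 on log2(FPKM + 1) and log2(FPKM + 0.1). Total counts of 15983985 to 18272314 set the precision, and intervals cover the spread between libraries. Members and lists were chosen with earlier results of these data known. Named genes were all genes described, any gene of the kinase, partner and MYC-MAX lists, and in other lists the 2 largest called changes each way, the most abundant gene and genes called against the list's direction. The likeness of genes used the root mean square distance of centred log2 CPM values over genes averaging 100 or more normalized counts.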

Additional observations from a re-analysis of the deposited data

How the results depend on the processing

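The 7 calls lower and 1 call higher among the 10 genes stood under DESeq2, other normalizations and filters, limma on FPKM and glmTreat, and with each library left out. Deviations of same-numbered libraries from their group means hardly correlated (0.0074, -0.021 and -0.046), which with 3 libraries per group cannot exclude a shared batch. The fit with a replicate block gave 7 lower and 1 higher as well and changed no call among the 10 genes. An absolute log2 fold change of 1.2 left 4 lower and 0 higher among them, where RBL1 (-1.03), RBL2 (-0.56), FOXM1 (-0.99) and MYC (0.95) lost their calls, 2 and 1 among E2F partners, 3 lower among the RB kinases, 20 and 0 at G1/S, 20 and 0 at G2/M, 1 and 2 in the MYC network, 0 and 2 among MYC targets and 0 and 7 among G0 genes. The G0 list had 3 lower by glmTreat, where CDKN1B and YPEL3 lost their calls (adjusted p = 0.17 and 0.13). FBXW7 of the MYC network lost its call by glmTreat as well (adjusted p = 0.12), and by limma on log2(FPKM + 1). At G2/M 2 were higher by adjusted p alone, and 1 to 2 with 1 library left out, namely 2 without replicate 2 of either group. Sign changes were limited to the 2 genes not called: E2F3 was 0.020 with library size alone, 0.0027 with at least 10 counts in every library and 0.0052 with protein-coding genes only, and ranged from -0.033 to 0.029 with 1 library left out, while RB1 ranged from -0.11 to 0.0053, the last without parent replicate 2. E2F2 had -1.79 (log2) with limma on log2(FPKM + 1), a scale that understates changes of low genes, and -3.83 to -3.42 with 1 library left out. The difference in the share of E2F1 to E2F3, -26.3 points, was -25.3 on CPM and -18.03 within E2F1 to E2F6. The log2 ratio of activating E2Fs to pocket proteins differed by -0.43, by -0.29 on CPM and by -0.86 over RB1 alone. E2F2 rests on 14 to 32 counts in ADRr libraries, so its level there is the least precise of the 10 genes.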

Other observations

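A list of genes known to rise when cells leave the cycle, of which CDKN1A, CDKN1B, CDKN1C and MXD4 were described above, was mostly higher in ADRr cells. Of 21 tested genes of that list, 14 were called higher, 5 lower and 2 not called, with a median log2 fold change of 0.72, and 66.7% called higher stands beside 29.2% of all genes tested. This list too was drawn up with earlier results of these data known, so its counts are no separate evidence that cells left the cycle. TXNIP, an inhibitor of thioredoxin, had 14.4, 15.2 and 14.7 FPKM in parent and 239, 234 and 229 FPKM in ADRr libraries (log2 fold change 3.98, standard error 0.054, adjusted p = 9.7e-24 by edgeR). MXD4 (-0.87), GAS6 (-0.57), CCNG2 (-0.44), YPEL3 (-0.38) and CDKN1B (-0.32) went against the list. YPEL3 was not called without ADRr replicate 2 or 3 (adjusted p = 0.052 and 0.061 by edgeR).

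Genes whose 6 values followed those of a gene described above most closely were sought among 10859 genes, as a description of likeness over 6 libraries that share 1 comparison. The nearest to RB1 was TPR (root mean square distance 0.018 in log2 CPM), to RBL1 CTPS2 (0.031), to RBL2 SERTAD4-AS1 (0.027) and to E2F1 CSF1 (0.028). E2F3 was nearest to GPR107 (0.015), E2F8 to DAG1 (0.020), MYBL2 to PXMP4 (0.036), FOXM1 to MAMLD1 (0.040) and MYC to IER3 (0.031). E2F2 had no close match, its nearest gene being SYT12 at 0.26.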
